A study of Homo sapiens with 9 samples.

Results

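The 52 genes of the proteasome, its activators and its assembly factors were taken from a count table of 25886 gene symbols. They were every symbol of the PSMA, PSMB, PSMC, PSMD, PSME, PSMF and PSMG series, plus POMP, ADRM1, SEM1 and NFE2L1. RNA had been sequenced after removal of rRNA from HT29 cells (as labelled), a long-established human colorectal cancer line, in 3 DNMT1 knockdown, 3 DNMT3B knockdown and 3 Control libraries. The knockdowns were stable, made with lentiviruses, and the cells of all 3 groups, Control included, went through puromycin selection. DNMT1 maintains DNA methylation after replication, and DNMT3B is a de novo DNA methyltransferase. The series starts from the loss of both enzymes under proteasome inhibitors, which gives the proteasome genes themselves a place in its question. In the counts the libraries are named shDNMT1, shDNMT3B and, for Control, shCTR, a prefix that reads as short hairpin RNA. The sources used here do not give the number of knockdown constructs or clones, nor the sequence of the Control construct.

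The proteasome degrades proteins that carry ubiquitin chains. Its barrel, the 20S core, stacks rings of alpha subunits, which gate the entry, on rings of beta subunits, of which PSMB5, PSMB6 and PSMB7 cut peptide bonds. The 19S regulatory particle sits on the barrel and has a base, with ATPases that unfold substrates, and a lid, with the deubiquitinase that removes ubiquitin. In cells exposed to interferon the inducible subunits PSMB8, PSMB9 and PSMB10 replace the catalytic ones and form the immunoproteasome, which favours peptides for MHC class I. NFE2L1 (NRF1) is the transcription factor that raises proteasome subunit genes when proteasome activity is lowered. Most subunit genes are expressed in every tissue, and the immunosubunits mainly in cells of the immune system.

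The members were sorted by role into 7 subunits of the alpha ring, 7 of the beta ring, 10 of the base and 9 of the lid, which together are the 33 subunits of the constitutive 26S proteasome. The remaining 19 were 3 immunosubunits, 2 tissue-specific subunits, 5 activators and regulators, 8 assembly chaperones and NFE2L1. Of the 52 members, 49 passed the filter on low counts and were tested. The thymus subunit PSMB11 had 7 counts and the testis subunit PSMA8 1 count over the 9 libraries, and PSMB8 also stayed below the filter.

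Libraries held 23.42 to 24.17 M counts (M, 1e6) in DNMT1 knockdown cells, 18.77 to 25.96 M in DNMT3B knockdown cells and 26.92 to 33.67 M in Control cells, so that every Control library was deeper than every knockdown library. The part of depth in the results was not tested. A count of 0 allows up to 3 counts, or 0.0891 to 0.16 CPM (counts scaled to a library of 1 M) depending on the library, for counting error only. The targeted mRNA stood at 55% of Control in the DNMT1 knockdown and at 49.7% of Control in the DNMT3B knockdown (exact two-sided permutation p = 0.1 for each, the smallest that 3 against 3 libraries allow). Of 8 colorectal epithelial markers, EPCAM averaged 249 CPM with DNMT1 knockdown, 235 CPM with DNMT3B knockdown and 285 CPM in Control, and KRT8, KRT18 and CDH1 were also high. KRT20 was low, at 1.63 CPM with DNMT1 knockdown, 2.02 CPM with DNMT3B knockdown and 1.03 CPM in Control. CEACAM5 was at 0 in 7 of 9 libraries, LGALS4 was at 0.495 CPM or less, and VIL1 averaged 0.905 CPM with DNMT1 knockdown, 0.893 CPM with DNMT3B knockdown and 0.905 CPM in Control. These 3 are at or near 0 although colorectal epithelium expresses them, which goes against the label, and the identity of the line was not checked. Whether the replicates are separate cultures is not in the labels. The p-values then cover only library-to-library spread, possibly technical.

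The promoters of 46 members were found among the RefSeq promoter sequences (GRCh38.p14), each running from 250 bases before the annotated start to 50 bases after it. They were searched on both strands for 4 short motifs, of which 3 are reported here: the antioxidant response element core TGACNNNGC, at which NFE2L1 binds with small MAF proteins; the CCAAT box CCAAT, bound by the NFY complex; and the core of the interferon-stimulated response element (ISRE). The antioxidant response core was in 14 of 46 member promoters (30.4%) and in 14.3% of the 18785 promoters of all symbols in the table. Constitutive subunits with it were PSMB3, PSMC4, PSMD1, ADRM1, PSMD3 and PSMD12, and no alpha ring promoter that was searched held it. The rest were PSMB9, PSME1, PSME2, PSME4, PSMD5, PSMD9, PSMG1 and PSMG2, so the pooled share does not describe the constitutive subunits alone. PSMA7, PSMB1, PSMB6, PSMB7, PSMD4 and PSMG3 had no promoter sequence and were not searched. The CCAAT box was in 21 (45.7%, against 36.2%) and the ISRE core in 6 (13%, against 3.26%). A match describes letters in a window and is not a site shown to be bound. The window held a median of 22.5 CpG dinucleotides in members and 20 in all promoters. The upstream 250 bases are given for PSMB5, which had the largest fall, PSMB9, which had the largest rise, and PSMD5, which differed between the knockdowns, at chr14:23035221-23035470 (minus strand), chr6:32853942-32854191 (plus strand) and chr9:120842923-120843172 (minus strand). Capitals mark a CCAAT box in PSMB5, a CCAAT box and then an antioxidant response core on the opposite strand in PSMB9, and an antioxidant response core in PSMD5.
PSMB5: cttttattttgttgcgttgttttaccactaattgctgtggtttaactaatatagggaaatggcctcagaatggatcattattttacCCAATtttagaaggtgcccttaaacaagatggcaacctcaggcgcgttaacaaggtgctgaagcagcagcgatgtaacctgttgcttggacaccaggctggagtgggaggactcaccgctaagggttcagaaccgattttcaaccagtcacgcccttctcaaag
PSMB9: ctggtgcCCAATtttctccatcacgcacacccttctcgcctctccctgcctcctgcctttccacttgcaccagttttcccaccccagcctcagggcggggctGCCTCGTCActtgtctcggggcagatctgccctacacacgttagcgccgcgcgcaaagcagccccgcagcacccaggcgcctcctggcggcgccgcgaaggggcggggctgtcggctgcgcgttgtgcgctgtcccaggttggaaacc
PSMD5: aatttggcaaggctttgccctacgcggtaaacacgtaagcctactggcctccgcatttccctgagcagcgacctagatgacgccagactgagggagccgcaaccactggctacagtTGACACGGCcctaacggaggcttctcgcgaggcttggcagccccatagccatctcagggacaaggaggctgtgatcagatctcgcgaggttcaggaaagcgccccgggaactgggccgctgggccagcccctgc

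The 6 members with an ISRE core were PSMA4, PSMB4, PSMB10, PSME1, PSME2 and PSMG4. In 4 of them, an immunosubunit, both subunits of the interferon-inducible activator PA28 and a chaperone, the same 10 letters (capitals) occurred on one strand or the other close to the start. They are shown with 10 bases on each side, read along the gene's strand, at chr16:67936852-67936881 (minus strand, PSMB10), chr14:24136189-24136218 (plus, PSME1), chr14:24146619-24146648 (minus, PSME2) and chr6:3258904-3258933 (plus, PSMG4).
PSMB10: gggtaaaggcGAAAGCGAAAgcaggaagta
PSME1: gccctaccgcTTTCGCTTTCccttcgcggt
PSME2: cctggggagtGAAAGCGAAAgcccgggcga
PSMG4: ttccggggccGAAAGCGAAAgcgcgctcgg

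Transcripts of the constitutive 26S proteasome were mostly abundant, and the immunosubunits PSMB8 and PSMB9 were below all of them. Levels between genes are compared here in CPM, scaled by the trimmed mean of M values (TMM), per kb of exon. In Control cells the beta subunit PSMB3 was highest at 174 ± 2.98 CPM per kb (SD, n = 3), followed by the beta subunit PSMB4 at 157 ± 7.3, the ubiquitin receptor ADRM1 at 155 ± 4.33 and the lid subunit PSMD3 at 138 ± 2.69. PSMB4 and ADRM1 did not differ beyond their spread. The class median in Control was 57.9 CPM per kb in the alpha ring, 101 in the beta ring, 83.7 in the base, 46.0 in the lid, 36.3 among activators and 19.3 among chaperones.

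At the low end in Control stood PSMB9 at 1.73 ± 0.0794 and PSMB8 at 0.105 ± 0.0792 CPM per kb. PSMB10, the third immunosubunit, reached 13.9 ± 0.825 CPM per kb, above the base ATPase PSMC1 at 8.82 ± 0.241. SEM1, a small acidic lid subunit, was listed at 5.14 ± 0.149 CPM per kb, but its annotated exons sum to 6.54 kb, including long transcripts, which lowers that value. The exons of PSMC1 likewise sum to 4.45 kb, against 1.53 kb for ADRM1, so the distance between low and high subunits depends on the annotated lengths.

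**Figure D1:**
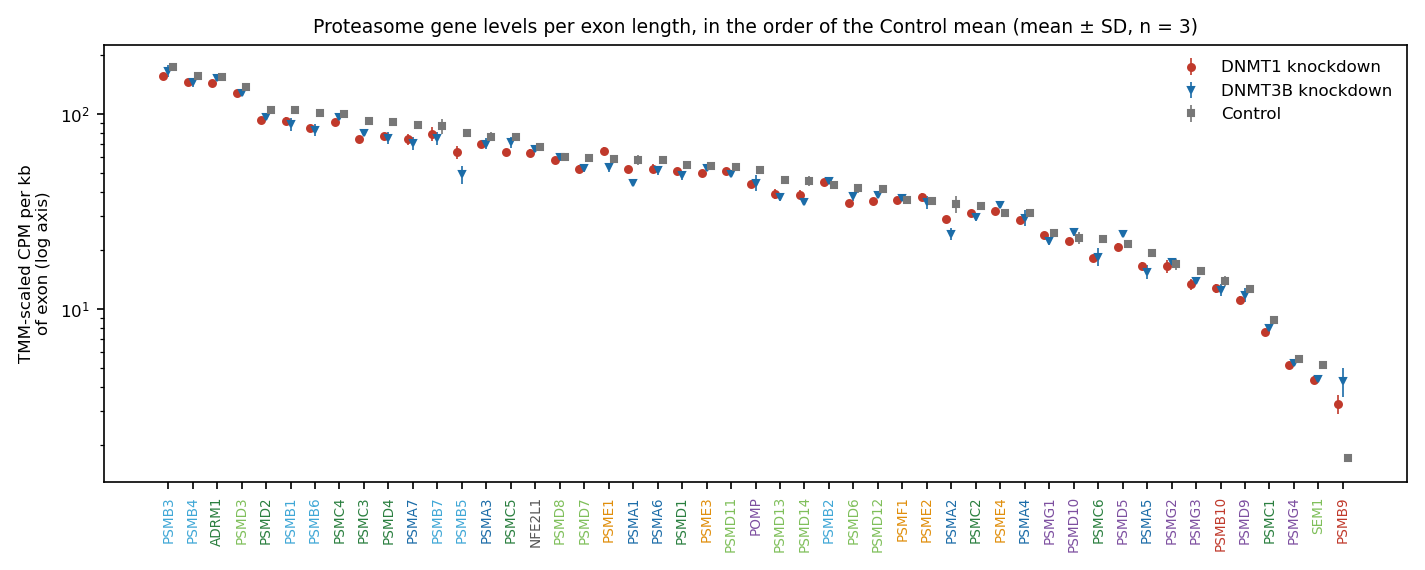
TMM-scaled CPM per kb of exon on a log axis for the 49 tested genes, ordered by the Control mean; circles are DNMT1 knockdown, triangles DNMT3B knockdown and squares Control (mean ± SD, n = 3), and name colours mark the class. The symbols of the 3 groups lie close together along the whole order, from PSMB3 at 174 to PSMB9 at 1.73 CPM per kb in Control, and PSMB9 shows the widest gap between knockdowns and Control.

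Summed over all 52 members, transcripts made up 5436 ± 64.4 CPM with DNMT1 knockdown, 5484 ± 164 CPM with DNMT3B knockdown and 5943 ± 108 CPM in Control (SD, n = 3 each). These sums are 91.5% of Control for DNMT1 knockdown and 92.3% for DNMT3B knockdown. The 33 constitutive 26S subunits summed to 3992 ± 63.8 CPM with DNMT1 knockdown, 3991 ± 155 CPM with DNMT3B knockdown and 4442 ± 108 CPM in Control, and no knockdown library reached a Control library. The 5 activators were at 746 ± 8.39 CPM with DNMT1 knockdown, 761 ± 4.16 CPM with DNMT3B knockdown and 751 ± 6.6 CPM in Control. Chaperone sums were 92.4% of Control with DNMT1 knockdown and 97.4% with DNMT3B knockdown. In bulk RNA, fewer cells of a type and less RNA per cell cannot be told apart.

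**Figure D2:**
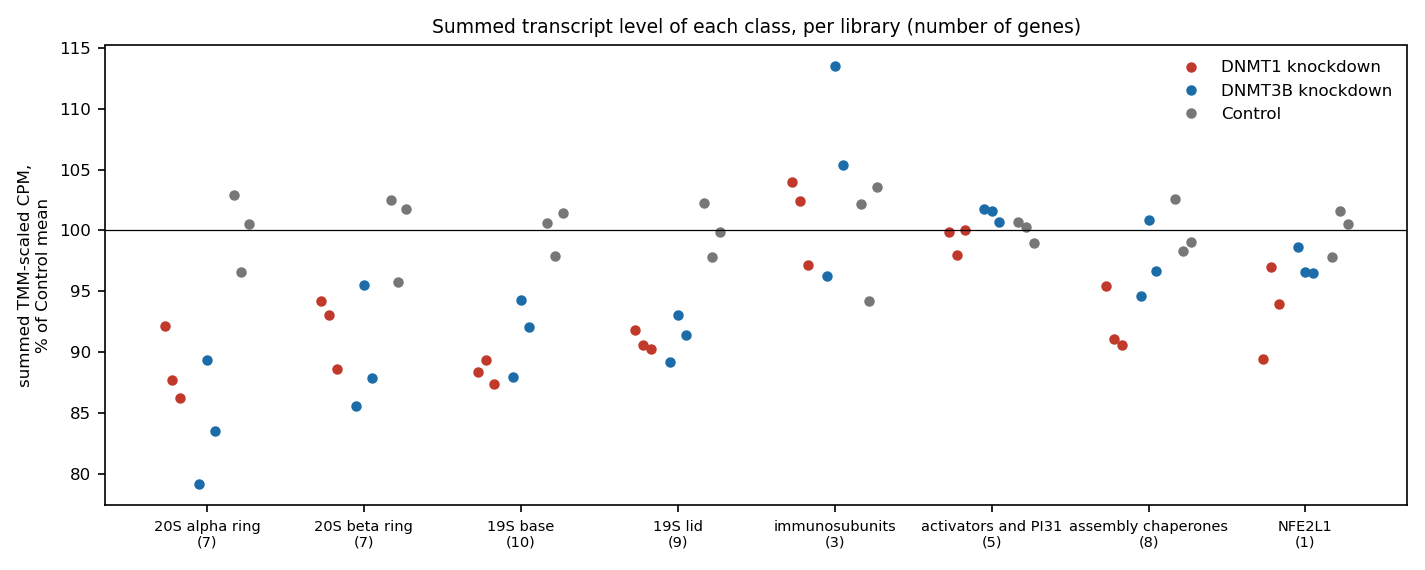
Summed TMM-scaled CPM of each class in each library, as a percentage of the Control mean, with the number of genes under each class name; each point is 1 library, and the axis does not start at 0. In the alpha ring, beta ring, base and lid every library of both knockdowns lies below 100%, while activator sums lie close to 100% in all 9 libraries, at 736 to 764 CPM.

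With DNMT1 knockdown, 35 of 49 tested members fell relative to Control, 2 rose and 12 were not called (edgeR quasi-likelihood test, Benjamini-Hochberg adjusted p under 0.05 over all 16660 tested genes). Of all tested genes, 20.8% were called lower and 21% higher. The falls were mostly small: the median log2 fold change of the 49 members was -0.14, against -0.0025 for all tested genes. Of the 33 constitutive 26S subunits, 30 fell and 0 rose, with a median of -0.18, while among the 16 other tested members 5 fell and 2 rose, with a median of -0.059. Abundant genes are called more often, so the members were also read against genes averaging 20 CPM or more, of which 30% were called lower in this comparison. At that level 35 of 47 members fell and 1 rose.

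With DNMT3B knockdown, 31 of 49 tested members fell relative to Control, 3 rose and 15 were not called. Over all tested genes 24.6% were called lower and 23.1% higher, and among genes averaging 20 CPM or more 34.5% were called lower. The members' median was -0.13, against 0.0023 for all tested genes. Of the 33 constitutive 26S subunits 26 fell and 0 rose, with a median of -0.17, and of the 16 others 5 fell and 3 rose. Both comparisons use the same 3 Control libraries, so their likeness is in part built in, and the values are set side by side below by role.

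**Figure D3:**
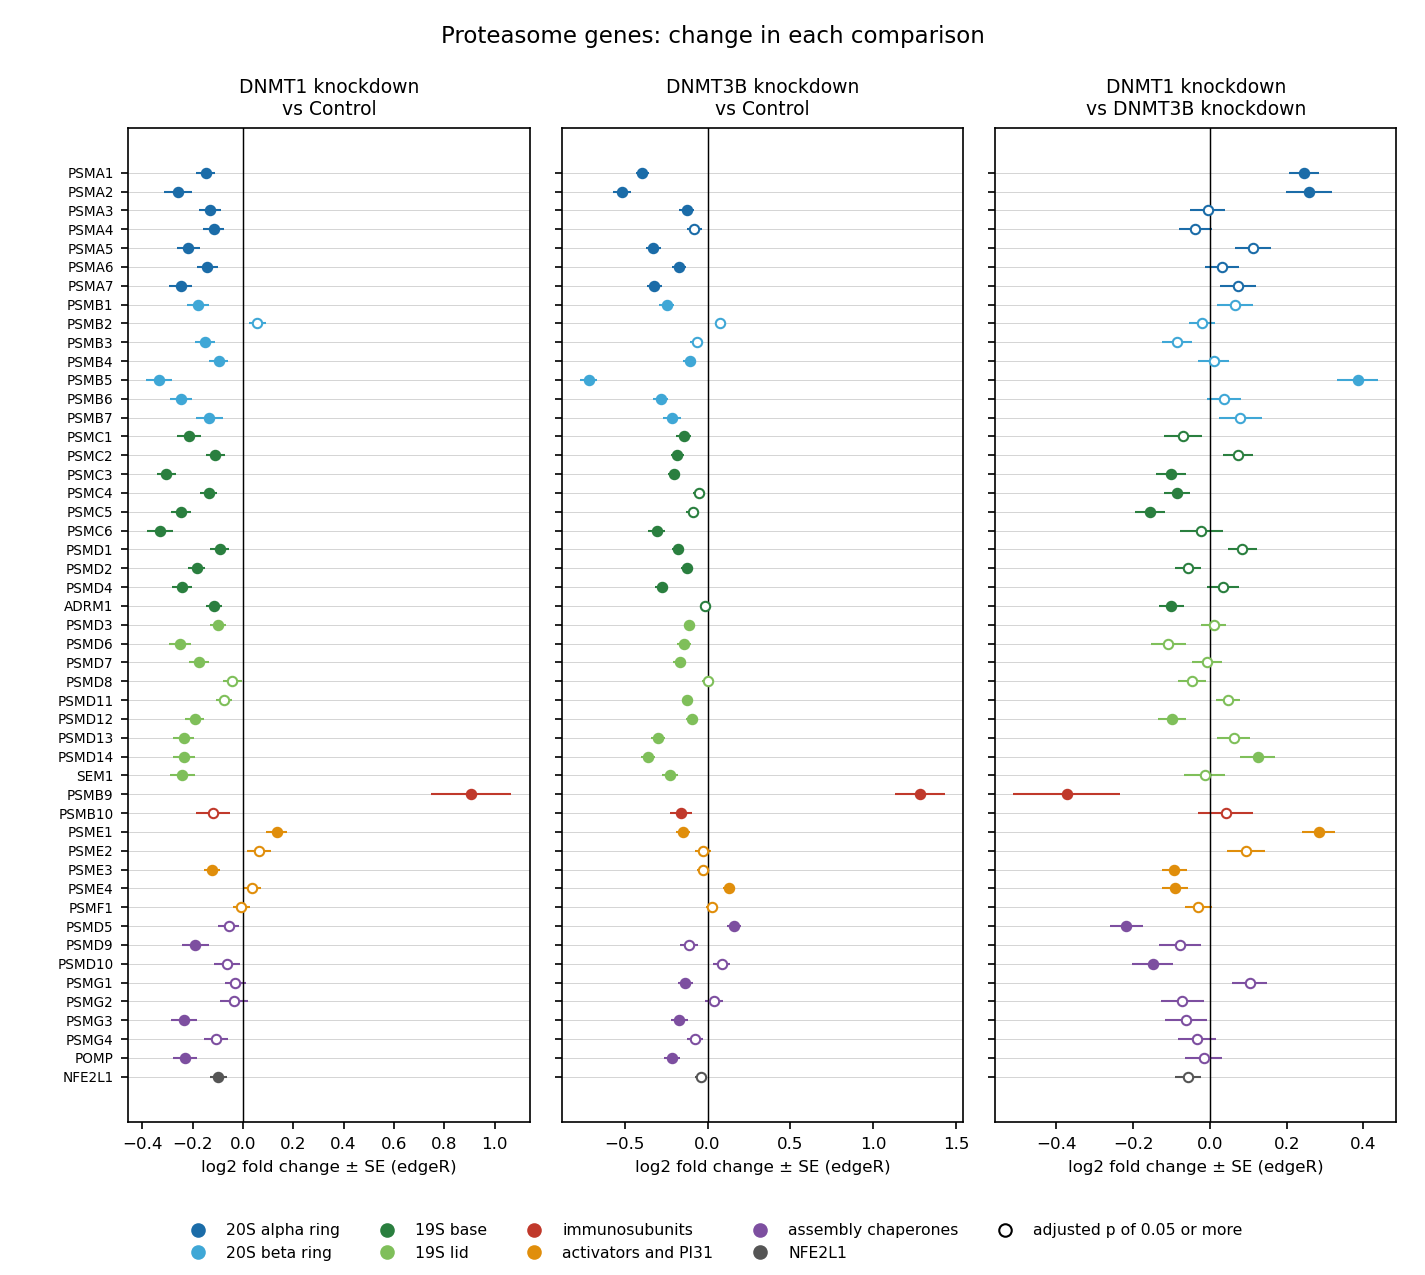
Log2 fold change ± SE (edgeR) of each of the 49 tested members in the 3 comparisons, in panels with separate scales; colours mark the class, and open circles an adjusted p of 0.05 or more. Members of the alpha ring, base and lid lie left of or at 0 in both comparisons with Control, PSMB9 lies far to the right (0.91 and 1.28), and PSME1 and PSMD5 lie on different sides of 0 in the knockdowns.

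The alpha ring was lower in both knockdowns, in 7 of 7 subunits with DNMT1 knockdown (median log2 fold change -0.15) and in 6 of 7 with DNMT3B knockdown (median -0.32). PSMA2 had 44.3, 43.5 and 41.3 CPM in DNMT1 knockdown libraries, 33.1, 37.1 and 37.8 CPM in DNMT3B knockdown libraries and 52.8, 45.8 and 55.3 CPM in Control libraries. All 6 knockdown values lay below the lowest Control value, and the DNMT3B knockdown values lay below those of the DNMT1 knockdown. Its fold change was -0.26 ± 0.055 (SE) with DNMT1 knockdown (edgeR adjusted p = 0.000321) and -0.52 ± 0.0568 with DNMT3B knockdown (adjusted p = 5.72e-09).

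PSMA1 showed the same order, with 121, 117 and 116 CPM with DNMT1 knockdown, 97.2, 101 and 101 CPM with DNMT3B knockdown and 139, 125 and 128 CPM in Control. Its 3 groups did not overlap, and it fell by 0.15 with DNMT1 knockdown (adjusted p = 0.00217) and by 0.39 with DNMT3B knockdown (adjusted p = 6.46e-10). PSMA5 fell to 86.1% of Control with DNMT1 knockdown and to 79.7% with DNMT3B knockdown. PSMA7 fell to 84.2% with DNMT1 knockdown and to 80% with DNMT3B knockdown. PSMA3 and PSMA6 fell to 88.7% to 91.6% in either knockdown. PSMA4 fell to 92.2% with DNMT1 knockdown (adjusted p = 0.0267) and was at 94.7% with DNMT3B knockdown (adjusted p = 0.13). The PSMA4 call with DNMT1 knockdown was lost under 5 of 17 alternatives (adjusted p up to 0.118). Those of PSMA3 and PSMA6 with DNMT1 knockdown were each lost under 2, and that of PSMA1 under 1. The PSMA3 call with DNMT3B knockdown, where libraries overlapped Control, was lost under 3.

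Among the beta subunits the 3 catalytic ones fell in both knockdowns, and PSMB5 had the largest fall of any tested member in each. PSMB5 carries the chymotrypsin-like activity and is the main target of bortezomib. It had 98.8, 95.3 and 85.5 CPM with DNMT1 knockdown, 65.3, 80.2 and 69.8 CPM with DNMT3B knockdown and 121, 112 and 119 CPM in Control. The 3 groups did not overlap, with the DNMT3B knockdown lowest. PSMB5 was at 79.4% of Control with DNMT1 knockdown (log2 fold change -0.33 ± 0.0502, adjusted p = 2.62e-06) and at 60.8% with DNMT3B knockdown (-0.72 ± 0.0519, adjusted p = 5.88e-13).

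PSMB6, the caspase-like subunit, had 72.8, 77.1 and 72.3 CPM with DNMT1 knockdown, 66.8, 76.2 and 74.0 CPM with DNMT3B knockdown and 88.5, 85.1 and 89.8 CPM in Control. Both knockdowns lay below Control and overlapped each other, with a log2 fall of 0.25 with DNMT1 knockdown (adjusted p = 1.98e-05) and of 0.28 with DNMT3B knockdown (adjusted p = 1.9e-06). PSMB7, the trypsin-like subunit, had 81.8, 80.5 and 70.8 CPM with DNMT1 knockdown, 71.0, 80.5 and 70.1 CPM with DNMT3B knockdown and 91.4, 76.9 and 86.8 CPM in Control. Here the libraries of the groups overlapped because Control replicate 2 was low. PSMB7 fell by 0.13 with DNMT1 knockdown (adjusted p = 0.0476), a call lost under 9 of 17 alternatives (adjusted p up to 0.366). It fell by 0.21 with DNMT3B knockdown (adjusted p = 0.0018), a call lost under DESeq2.

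The other beta subunits have no catalytic activity, and 3 of 4 fell with DNMT1 knockdown and 2 of 4 with DNMT3B knockdown. PSMB1 fell to 88.3% of Control with DNMT1 knockdown and to 84.4% with DNMT3B knockdown. PSMB3 fell to 90.1% with DNMT1 knockdown and was at 95.7% with DNMT3B knockdown (adjusted p = 0.181), and PSMB4 fell with DNMT1 knockdown, to 93.5% (adjusted p = 0.0444), and with DNMT3B knockdown, to 92.9% (adjusted p = 0.0247), its libraries overlapping Control in both. The PSMB4 call with DNMT1 knockdown was lost under 11 of 17 alternatives (adjusted p up to 0.209), DESeq2 and the replicate block among them, and that with DNMT3B knockdown under 5 of 17 (adjusted p up to 0.143). PSMB2 was the exception in direction, at 218 ± 5.97 CPM with DNMT1 knockdown, 221 ± 6.61 CPM with DNMT3B knockdown and 209 ± 5.36 CPM in Control, and was not called with DNMT1 knockdown (adjusted p = 0.186) or DNMT3B knockdown (adjusted p = 0.0631).

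**Figure D4:**
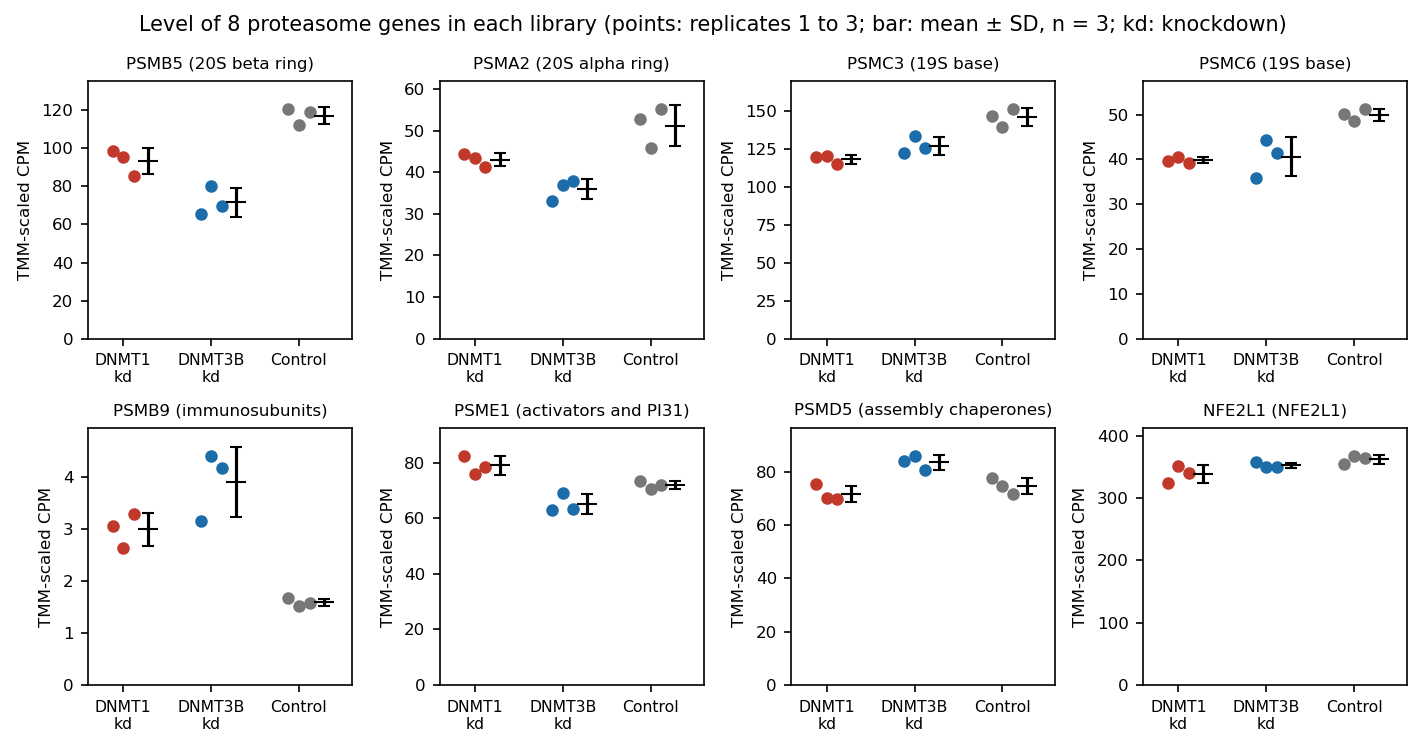
TMM-scaled CPM of 8 members in each library (points, replicates 1 to 3 from left to right) with the mean ± SD beside them, for DNMT1 knockdown, DNMT3B knockdown and Control; every axis starts at 0. PSMB5, PSMA2, PSMC3 and PSMC6 are below Control in all 6 knockdown libraries, PSMB9 is above Control in all 6, and PSME1 is highest with DNMT1 knockdown and PSMD5 highest with DNMT3B knockdown.

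In the 19S base all 10 subunits fell with DNMT1 knockdown (median -0.20) and 7 of 10 with DNMT3B knockdown (median -0.16). PSMC6, one of the 6 ATPases, had 39.7, 40.5 and 39.1 CPM with DNMT1 knockdown, 35.8, 44.4 and 41.5 CPM with DNMT3B knockdown and 50.01, 48.5 and 51.2 CPM in Control. Its fall was about alike in the knockdowns, -0.33 ± 0.0521 (adjusted p = 5.68e-06) with DNMT1 and -0.31 ± 0.0524 (adjusted p = 1.28e-05) with DNMT3B, without overlap with Control. PSMC3, the ATPase known as RPT5, had 119.6, 120.0 and 115 CPM with DNMT1 knockdown, 122, 133 and 125 CPM with DNMT3B knockdown and 147, 139 and 151 CPM in Control. The DNMT1 knockdown values were the lowest and did not overlap the others, and the fold change was -0.30 ± 0.0379 with DNMT1 knockdown (adjusted p = 8.87e-08) and -0.20 ± 0.0379 with DNMT3B knockdown (adjusted p = 4.41e-05).

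PSMC5 had 130.0, 133 and 132 CPM with DNMT1 knockdown, 136, 151 and 153 CPM with DNMT3B knockdown and 152, 154 and 162 CPM in Control. With DNMT1 knockdown it fell to 84.3% of Control (adjusted p = 5.48e-06), while with DNMT3B knockdown it was at 94% and overlapped Control (adjusted p = 0.0569). The ubiquitin receptor ADRM1 likewise fell to 92.4% with DNMT1 knockdown (adjusted p = 0.00503) and was at 99.1% with DNMT3B knockdown (adjusted p = 0.778), and PSMC4 fell to 91% with DNMT1 knockdown (adjusted p = 0.00158) and was at 96.6% with DNMT3B knockdown (adjusted p = 0.227). The other ubiquitin receptor, PSMD4, fell to 84.5% with DNMT1 knockdown and to 82.6% with DNMT3B knockdown. With DNMT1 knockdown the scaffold subunit PSMD1 fell to 93.8% (adjusted p = 0.0399, a call lost under 10 of 17 alternatives with adjusted p up to 0.151, the replicate block among them), the scaffold subunit PSMD2 to 88.1%, and the ATPases PSMC1 to 86.2% and PSMC2 to 92.7%. With DNMT3B knockdown PSMD1 fell to 88.4%, PSMD2 to 91.6%, PSMC1 to 90.5% and PSMC2 to 88.1%. The PSMC2 call with DNMT1 knockdown was lost under 2 of 17 alternatives (adjusted p up to 0.122). The ADRM1 call with DNMT1 knockdown and the PSMC1 call with DNMT3B knockdown were each lost under 1.

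In the lid 7 of 9 subunits fell with DNMT1 knockdown (median -0.19) and 8 of 9 with DNMT3B knockdown (median -0.14). PSMD14, the deubiquitinase of the lid, had 79.0, 76.4 and 71.0 CPM with DNMT1 knockdown, 67.0, 70.2 and 70.6 CPM with DNMT3B knockdown and 93.7, 83.9 and 88.4 CPM in Control. The 3 groups did not overlap, and PSMD14 fell by 0.23 with DNMT1 knockdown (adjusted p = 4.77e-05) and by 0.36 with DNMT3B knockdown (adjusted p = 3.98e-08). With DNMT1 knockdown PSMD6 fell to 84.1% of Control, SEM1 to 84.6%, PSMD13 to 85%, PSMD12 to 87.5%, PSMD7 to 88.6% and PSMD3 to 93.3%. With DNMT3B knockdown PSMD13 fell to 81.4% of Control, SEM1 to 85.4%, PSMD7 to 89%, PSMD6 to 90.6%, PSMD3 to 92.7% and PSMD12 to 93.7%. The PSMD12 call with DNMT3B knockdown was lost under 4 of 17 alternatives (adjusted p up to 0.282). That of PSMD6 was lost under 2 (adjusted p up to 0.0941), and libraries of both genes overlapped Control. With DNMT1 knockdown the PSMD3 call was lost under 3 (adjusted p up to 0.0603). PSMD11 fell to 92% with DNMT3B knockdown (adjusted p = 0.00202) and was at 95% with DNMT1 knockdown (adjusted p = 0.0596). PSMD8 was not called in either, with a fold change of -0.04 (95% interval -0.11 to 0.03) with DNMT1 knockdown and 0.0047 (-0.07 to 0.08) with DNMT3B knockdown.

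Of the immunosubunits, PSMB9 rose while its constitutive partner PSMB6 fell, and the ratio of PSMB10 to its partner PSMB7 stayed about the same. PSMB9, which takes the place of PSMB6 and whose gene lies in the MHC class II region beside the peptide transporter gene TAP1, had 3.05, 2.64 and 3.28 CPM with DNMT1 knockdown, 3.15, 4.42 and 4.18 CPM with DNMT3B knockdown and 1.67, 1.53 and 1.57 CPM in Control. Every knockdown library was above every Control library. It rose 1.88-fold with DNMT1 knockdown (log2 fold change 0.91 ± 0.159, adjusted p = 2.54e-05) and 2.43-fold with DNMT3B knockdown (1.28 ± 0.151, adjusted p = 2.23e-08), the 1 change of more than 2-fold among the tested members. The level stayed low: 215 counts over the 3 DNMT1 knockdown libraries, 268 over the DNMT3B knockdown libraries and 146 over the Control libraries.

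PSMB8, which takes the place of PSMB5, was near the floor, with 0.371, 0.256 and 0.208 CPM with DNMT1 knockdown, 0.573, 0.377 and 0.383 CPM with DNMT3B knockdown and 0.0596, 0.298 and 0.128 CPM in Control. The sums were 20 counts with DNMT1 knockdown, 31 with DNMT3B knockdown and 14 in Control. Without a filter on low counts PSMB8 was 1.51 ± 0.469 higher (log2) with DNMT3B knockdown (edgeR adjusted p = 0.00489), and its value with DNMT1 knockdown was 0.83 ± 0.523 (adjusted p = 0.243). It overlaps the antisense gene PSMB8-AS1, and reads of the pair cannot be told apart unless strand was used in counting, which the sources do not say.

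PSMB10, which takes the place of PSMB7 and has the ISRE core shown above, had 16.0, 16.2 and 14.6 CPM with DNMT1 knockdown, 14.2, 16.4 and 15.1 CPM with DNMT3B knockdown and 17.3, 15.8 and 17.6 CPM in Control. The groups overlapped, with a fold change of -0.12 ± 0.0666 with DNMT1 knockdown (adjusted p = 0.153) and -0.16 ± 0.0676 with DNMT3B knockdown (adjusted p = 0.0498), a call lost under 13 of 16 alternatives (adjusted p up to 0.241). Set over their partners per kb of exon, the 3 immunosubunits together were at 7.13 ± 0.214% with DNMT1 knockdown, 8.22 ± 0.212% with DNMT3B knockdown and 5.87 ± 0.0813% in Control (SD, n = 3 each), with no overlap between groups. These ratios also hold the fall of the partners. The summed CPM of the 3 immunosubunits was 101% of Control with DNMT1 knockdown and 105% with DNMT3B knockdown, and the libraries of the 3 groups overlapped. PSMB9 over PSMB6 was 3.84 ± 0.54% with DNMT1 knockdown, 5.1 ± 0.553% with DNMT3B knockdown and 1.71 ± 0.065% in Control. PSMB10 over PSMB7 was 16.2 ± 0.464% with DNMT1 knockdown, 16.6 ± 0.628% with DNMT3B knockdown and 16.0 ± 0.668% in Control.

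Genes that regulate or neighbour the immunosubunits were mixed in direction. Of 11 such genes, 3 were called higher and 2 lower with DNMT1 knockdown, and 4 higher and 4 lower with DNMT3B knockdown. Over all tested genes the shares were 21% higher and 20.8% lower with DNMT1 knockdown, and 23.1% higher and 24.6% lower with DNMT3B knockdown. The counts with DNMT1 knockdown are near that background. Those with DNMT3B knockdown were above it in both directions, over only 11 genes. TAP1, which shares its intergenic promoter with PSMB9, fell by 0.27 with DNMT1 knockdown (adjusted p = 5.25e-05) and by 0.14 with DNMT3B knockdown (adjusted p = 0.0203). IRF1, a transcription factor of interferon responses, rose by 0.33 with DNMT1 knockdown (adjusted p = 0.000267) and by 0.25 with DNMT3B knockdown (adjusted p = 0.00477). NLRC5, the activator of MHC class I genes, was at -0.10 with DNMT1 knockdown (adjusted p = 0.228) and rose by 0.38 with DNMT3B knockdown (adjusted p = 1.07e-05).

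Immunosubunits are high in leukocytes, so markers of other cells stand beside PSMB9. The summed level of 6 leukocyte markers was 18.2 to 19.4 CPM with DNMT1 knockdown, 31.0 to 36.0 CPM with DNMT3B knockdown and 17.9 to 19.3 CPM in Control, nearly all of it CD68, a lysosomal protein. The T cell marker CD3E was at 0 in 6 of 9 libraries, and the pan-leukocyte marker PTPRC was at 0.205 CPM or less. The 5 fibroblast markers summed to 19.4 to 24.0 CPM with DNMT1 knockdown, 26.8 to 28.03 CPM with DNMT3B knockdown and 16.1 to 20.04 CPM in Control, nearly all COL1A1. The 3 endothelial markers summed to 1.36 to 1.87 CPM with DNMT1 knockdown, 3.03 to 3.93 CPM with DNMT3B knockdown and 2.09 to 2.21 CPM in Control. Their part in the PSMB9 result was not tested.

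The activators, which open the 20S gate without ATP, showed no common direction. PSME1, the alpha subunit of PA28, had 82.6, 75.9 and 78.6 CPM with DNMT1 knockdown, 62.9, 69.1 and 63.4 CPM with DNMT3B knockdown and 73.5, 70.5 and 71.9 CPM in Control. The DNMT1 knockdown libraries were above and the DNMT3B knockdown libraries below all Control libraries. PSME1 rose by 0.13 ± 0.0411 with DNMT1 knockdown (adjusted p = 0.00903), a call lost without DNMT1 knockdown replicate 1 (adjusted p = 0.063), and fell by 0.15 with DNMT3B knockdown (adjusted p = 0.00405).

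PSME2, the beta subunit of PA28, had 57.9, 56.9 and 53.1 CPM with DNMT1 knockdown, 48.0, 54.3 and 55.2 CPM with DNMT3B knockdown and 51.5, 53.3 and 55.8 CPM in Control, and was not called with DNMT1 knockdown (adjusted p = 0.292) or DNMT3B knockdown (adjusted p = 0.666). PSME3, the nuclear PA28 gamma, had 225, 219 and 228 CPM with DNMT1 knockdown, 235, 241 and 240.4 CPM with DNMT3B knockdown and 249, 242 and 241 CPM in Control. PSME3 fell by 0.12 with DNMT1 knockdown (adjusted p = 0.00264), below every other library, and was at -0.03 with DNMT3B knockdown (adjusted p = 0.469). PSME4, which encodes the activator PA200, had 229.8, 224 and 226 CPM with DNMT1 knockdown, 249, 239 and 236 CPM with DNMT3B knockdown and 223, 227 and 213 CPM in Control.

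PSME4 rose by 0.13 with DNMT3B knockdown (adjusted p = 0.00236), where its libraries did not overlap Control, and had a fold change of 0.04 with DNMT1 knockdown (adjusted p = 0.41). PSMF1 (PI31), a binding partner of the 20S core first described as an inhibitor, had 155, 160.3 and 166 CPM with DNMT1 knockdown, 169, 160.1 and 162 CPM with DNMT3B knockdown and 159.6, 161 and 162 CPM in Control. The groups overlapped (fold change -0.0060 with DNMT1 knockdown, 95% interval -0.07 to 0.06, and 0.02 with DNMT3B knockdown, -0.04 to 0.09).

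Of the 8 assembly chaperones 3 fell and 0 rose with DNMT1 knockdown, and 3 fell and 1 rose with DNMT3B knockdown. All 8 averaged more than 20 CPM, and of genes at that level 30% were called lower with DNMT1 knockdown and 34.5% with DNMT3B knockdown, so the chaperone counts are near the background. POMP, which matures the 20S core and is degraded as its first substrate, fell with DNMT1 knockdown, to 85.3% of Control (adjusted p = 0.000168), and with DNMT3B knockdown, to 86.2% (adjusted p = 0.000316). Among the 4 genes for ring assembly chaperones, PSMG3 fell to 85.1% with DNMT1 knockdown and to 88.8% with DNMT3B knockdown. PSMG1 was at 98% with DNMT1 knockdown (adjusted p = 0.616) and fell to 91.2% with DNMT3B knockdown (adjusted p = 0.0123). That fall was not called without DNMT3B knockdown replicate 1 (adjusted p = 0.112). PSMG2 and PSMG4 were not called in either knockdown.

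The 3 chaperones of the 19S base differed among themselves. PSMD5, which keeps base precursors from docking on the core early, had 75.2, 70.2 and 69.7 CPM with DNMT1 knockdown, 83.9, 86.1 and 80.5 CPM with DNMT3B knockdown and 77.5, 74.5 and 71.5 CPM in Control. It stood above both other groups with DNMT3B knockdown, where it rose by 0.16 ± 0.0409 (adjusted p = 0.00149), and overlapped Control with DNMT1 knockdown (adjusted p = 0.293). PSMD10, known as gankyrin, had 34.7, 35.1 and 33.3 CPM with DNMT1 knockdown, 39.0, 39.4 and 36.3 CPM with DNMT3B knockdown and 37.7, 32.8 and 36.8 CPM in Control. Both knockdowns overlapped Control for PSMD10, and it was not called with DNMT1 knockdown (adjusted p = 0.357) or DNMT3B knockdown (adjusted p = 0.169). PSMD9 fell to 87.7% with DNMT1 knockdown (adjusted p = 0.00417) and was at 92.6% with DNMT3B knockdown (adjusted p = 0.0814).

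NFE2L1 mRNA changed little. It had 324, 352 and 341 CPM with DNMT1 knockdown, 358, 350.3 and 350.0 CPM with DNMT3B knockdown and 355, 369 and 365 CPM in Control. It fell by 0.10 with DNMT1 knockdown (adjusted p = 0.02), with no overlap with Control, a call lost without DNMT1 knockdown replicate 1 and without Control replicate 2 or 3, and was at -0.04 with DNMT3B knockdown (adjusted p = 0.345). The activity of NFE2L1 is set mainly on the protein, which these data do not measure.

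Partners of the proteasome and of NFE2L1 were mixed in direction. Of 41 partner genes 40 were tested, and 15 fell and 7 rose with DNMT1 knockdown, against 20.8% lower and 21% higher over all tested genes. With DNMT3B knockdown 15 fell and 11 rose, against 24.6% lower and 23.1% higher, and among genes averaging 20 CPM or more the shares lower were 30% with DNMT1 knockdown and 34.5% with DNMT3B knockdown. VCP, the ATPase that extracts NFE2L1 from the endoplasmic reticulum membrane, averaged 275 ± 16.6 CPM with DNMT1 knockdown, 258 ± 15 CPM with DNMT3B knockdown and 344 ± 11.3 CPM in Control. DDI2, the protease that then cleaves NFE2L1, averaged 88.2 ± 3.36 CPM with DNMT1 knockdown, 73.7 ± 1.49 CPM with DNMT3B knockdown and 107 ± 1.69 CPM in Control. With DNMT1 knockdown VCP fell by 0.32 (adjusted p = 1.08e-07) and DDI2 by 0.28 (adjusted p = 2.92e-07). With DNMT3B knockdown VCP fell by 0.42 (adjusted p = 5.1e-10) and DDI2 by 0.54 (adjusted p = 2.62e-13).

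Other genes that handle the NFE2L1 protein did otherwise. NGLY1, which removes its sugars, was at -0.01 with DNMT1 knockdown (adjusted p = 0.856) and rose by 0.19 with DNMT3B knockdown (adjusted p = 0.00589). SYVN1, a ubiquitin ligase that targets it, rose by 0.12 with DNMT1 knockdown (adjusted p = 0.044) and by 0.12 with DNMT3B knockdown (adjusted p = 0.0458), with libraries overlapping Control. UFD1, a cofactor of VCP, was not called with DNMT1 knockdown (adjusted p = 0.403) or DNMT3B knockdown (adjusted p = 0.139).

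The mRNAs of the small MAF proteins, which pair with NFE2L1 on DNA, fell in both knockdowns for MAFG and MAFK and differed in direction for MAFF. MAFF fell by 0.23 with DNMT1 knockdown (adjusted p = 0.00128) and rose by 0.23 with DNMT3B knockdown (adjusted p = 0.00062), with no overlap with Control. MAFG fell by 0.44 with DNMT1 knockdown (adjusted p = 1.3e-11) and by 0.35 with DNMT3B knockdown (adjusted p = 1.08e-09). MAFK fell by 0.51 with DNMT1 knockdown (adjusted p = 5.43e-08) and by 0.32 with DNMT3B knockdown (adjusted p = 5.8e-05). USP14, a deubiquitinase bound to the 19S base, fell by 0.17 with DNMT1 knockdown (adjusted p = 0.000509) and by 0.54 with DNMT3B knockdown (adjusted p = 4.31e-13). NPLOC4, a cofactor of VCP, fell by 0.16 with DNMT1 knockdown (adjusted p = 0.000104) and by 0.32 with DNMT3B knockdown (adjusted p = 5.33e-10).

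Among partners that rose, UBA1, which starts the ubiquitin cascade, was higher by 0.13 with DNMT1 knockdown (adjusted p = 0.00115) and by 0.14 with DNMT3B knockdown (adjusted p = 0.00061). UBE4B, a ubiquitin chain elongation factor, was higher by 0.18 with DNMT1 knockdown (adjusted p = 0.000158) and by 0.10 with DNMT3B knockdown (adjusted p = 0.0203). Of the CCAAT-binding NFY subunits, NFYA rose by 0.21 with DNMT1 knockdown (adjusted p = 1.6e-05) and was at 0.03 with DNMT3B knockdown (adjusted p = 0.549), and NFYC rose by 0.15 with DNMT1 knockdown (adjusted p = 0.00164) and by 0.36 with DNMT3B knockdown (adjusted p = 2.81e-09). UBQLN4, a shuttle for ubiquitinated proteins, rose by 0.15 with DNMT1 knockdown (adjusted p = 0.00113). It lay on the other side of Control with DNMT3B knockdown, at 172 ± 6.19 against 183 ± 5.54 CPM, without overlap of libraries. With DNMT3B knockdown the ubiquitin gene UBB rose by 0.21 (adjusted p = 1.18e-05), a value that is uncertain because its repeats are near identical to those of other ubiquitin genes.

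Compared with each other, DNMT1 knockdown and DNMT3B knockdown differed in 15 of 49 tested members, 5 higher and 10 lower with DNMT1 knockdown. Of all tested genes 24.3% were called higher and 20.9% lower in this comparison. Among the 8577 genes averaging 20 CPM or more, 2664 were called higher and 2285 lower. At that level 5 of 47 members were higher and 9 lower, so members were called less often than such genes. The 26S subunits had a median of 0.0094, and their summed level with DNMT1 knockdown was 100.03% of that with DNMT3B knockdown. The members called higher were PSMB5 (log2 fold change 0.38 ± 0.0537, adjusted p = 5.28e-07), PSME1 (0.28 ± 0.0428, adjusted p = 2.01e-06), PSMA2 (0.26 ± 0.0596, adjusted p = 0.000611), PSMA1 (0.24 ± 0.0397, adjusted p = 6.01e-06) and PSMD14 (0.12 ± 0.0453, adjusted p = 0.0243).

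Those called lower with DNMT1 than with DNMT3B knockdown were led by PSMB9 (-0.37 ± 0.139, adjusted p = 0.0283), whose libraries overlapped, followed by PSMD5 (-0.22 ± 0.042, adjusted p = 7.59e-05), PSMC5 (-0.16 ± 0.0397, adjusted p = 0.00164) and PSMD10 (-0.15 ± 0.0536, adjusted p = 0.023). The others were PSMC3, PSMC4, ADRM1, PSMD12, PSME3 and PSME4, at -0.10 to -0.09. In the base 4 of 10 subunits were thus lower and 0 higher with DNMT1 knockdown, and in the alpha ring 2 of 7 were higher and 0 lower. Over all tested genes 20.9% were lower and 24.3% higher, so the alpha ring count is near the background. Among genes averaging 20 CPM or more, as all base subunits do, 26.6% were lower, and the base count rests on only 4 calls. Of the base calls, PSMC4 was lost under 8 of 17 alternatives and PSMC3 under 3, while ADRM1 and PSMC5 kept theirs under all. Among the other calls PSMD14, PSMD10 and PSMD12 were each lost under 4 alternatives, PSME4 under 3 and PSME3 under 2. DESeq2 was among the alternatives that lost PSMC4, PSMC3, PSMD14 and PSMD10. The counts of called members also depend on single libraries. Without DNMT3B knockdown replicate 2 the members called higher numbered 10 and those called lower 5. Without DNMT1 knockdown replicate 2 or 3 those called lower were 5. Without DNMT3B knockdown replicate 3, or under DESeq2, those called lower numbered 6. The PSMB9 difference was not called under DESeq2 or without any one of 4 knockdown libraries (adjusted p up to 0.134).

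Of the 40 tested partners 10 were higher and 10 lower with DNMT1 than with DNMT3B knockdown. Over all tested genes 24.3% were higher and 20.9% lower, so these counts are near the background. The higher ones were led by USP14 (0.37, adjusted p = 2.92e-09), DDI2 (0.26, adjusted p = 1.6e-06), UBQLN4 (0.24, adjusted p = 3.21e-06) and the proteasome adaptor ECPAS (0.19, adjusted p = 2.82e-05). The lower ones included the small MAF gene MAFF (-0.46, adjusted p = 5.87e-08), the ubiquitin ligase UBE3A (-0.20, adjusted p = 1.19e-05) and UBB (-0.21, adjusted p = 1.7e-05).

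Single libraries moved many members at once. DNMT3B knockdown replicate 2, the shallowest library, was the highest of its group in 24 of the 33 constitutive 26S subunits, and DNMT3B knockdown replicate 1 the lowest in 29, while Control replicate 2 was the lowest of its group in 26. Without DNMT3B knockdown replicate 2 the members lower with DNMT3B knockdown numbered 35, and without replicate 1 they numbered 24. Calls also varied with transcript length: among genes averaging 20 CPM or more, the share lower with DNMT1 knockdown was 36.2% under 1000 bases of exon, 34.5% from 1000 to 2000, 33.1% from 2000 to 4000 and 26.6% above, with member medians of -0.14, -0.23, -0.13 and -0.11 in the same bins. With DNMT3B knockdown the shares were 32.1%, 35.5%, 34.3% and 34.4%, without a trend. Over all tested genes the shares were lowest for short transcripts, at 14.8%, 20.7%, 22.6% and 21.8% with DNMT1 knockdown and 15.1%, 23.6%, 25.1% and 28% with DNMT3B knockdown, from the shortest bin to the longest. The part of length in the results was not tested.

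Reads of 11 members may be shared with another gene of the table that overlaps their position, among them PSMA3 with PSMA3-AS1, PSMC1 with NRDE2, PSMC2 with PMPCB, PSMC5 with FTSJ3 and PSMD10 with ATG4A. Their values are uncertain to that extent, since the sources used here do not say whether counting used strand.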

How the data were processed

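The authors' deposited values are unscaled raw counts for each gene symbol in 9 libraries. STAR, featureCounts, DESeq2 and GRCh38 (hg38) are named, per the submitters' processing notes; the sources used here give no versions, annotation or strand setting. The 52 members, their roles, the partner and marker lists and the tests were chosen with earlier results of these data known.

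From the counts, R 4.3.3 and edgeR 4.0.16 gave all tests: filterByExpr by group (16660 genes), TMM scaling, and the quasi-likelihood fit over all 9 libraries with 1 shared spread (6 residual degrees of freedom; biological coefficient of variation 2.96%). A call needs a Benjamini-Hochberg adjusted p under 0.05 over all tested genes; log2 fold changes carry their standard error after ±. Levels per kb used union exons of the GENCODE 29 basic annotation. The naming rule took all members, with per-library values for catalytic and inducible subunits, activators, NFE2L1 and the 4 largest called rises and falls per comparison, plus up to 4 partners per direction by adjusted p; neighbours and regulators of immunosubunits, NGLY1, SYVN1 and UFD1 were picked after their values were seen. Some genes of the lists are counted but not reported here by name. Alternatives were DESeq2 1.42.0, other scalings and filters, a fit of the 2 groups compared, a replicate block, and each library left out in turn. The fitting scripts were tested on simulated data. Replicates of a group differed beyond sampling noise, with chi-square from 1.8 to 3.7 for each degree of freedom.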

Additional observations from a re-analysis of the deposited data

How the results depend on the processing

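No member reversed its direction in any call under the alternatives. In the comparison of DNMT1 knockdown with Control, members higher numbered 1 with a mean of at least 20 CPM asked, where PSMB9 is not tested, and 1 to 2 with each library left out; members lower numbered 31 to 35 under the other settings and 27 to 35 with each library left out. PSMB4, PSMB7 and PSMD1 were the calls lost most often. In the comparison of DNMT3B knockdown with Control, members higher numbered 3 to 4 and members lower 27 to 33, or 24 to 35 with each library left out, and PSMB10 was the call lost most often. Between the knockdowns, members higher numbered 4 to 6, or 4 to 10 with each library left out; members lower numbered 6 under DESeq2 and 9 to 11 under the other settings, or 5 to 11 with each library left out. The summed level of all members was 0.903 to 0.923 of Control with DNMT1 knockdown and 0.911 to 0.937 with DNMT3B knockdown over all alternatives, and 0.978 to 1.006 between the knockdowns. Replicate numbers are shared by the groups, but libraries of the same number did not deviate together (correlation -0.0615 to 0.0425, against -0.0393 to 0.0598 for other numbers). With the replicate block, members lower numbered 33 with DNMT1 knockdown and 31 with DNMT3B knockdown, and 9 were lower between the knockdowns. Where the calls changed, the cause was not tested. Depth limits PSMB8, PSMA8 and PSMB11, which are near or below the floor of 3 counts.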
